A study of Rattus norvegicus with 9 samples.

Results

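MSTRG.2024 is a locus of predicted long non-coding RNA (lncRNA), the RNA class that is longer than small RNA and is not translated into protein. It was taken as all rows of the deposited count table whose identifier begins with MSTRG.2024, which gave 12 of the 3251 predicted lncRNA and 12 of all 44059 transcripts. The prefix MSTRG marks a transcript that was assembled from the reads, the first number names its locus and the last number the transcript. The locus was chosen by its counts in the ischemia-reperfusion (I/R) and Sham libraries, which differ several-fold, so that difference is described below without a test. The transcripts are numbered 1 to 13, and no transcript numbered 6 is among the 12.

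RNA was sequenced from the cortex of 9 male Sprague-Dawley rats aged 7 to 8 weeks, 3 rats in each of 3 groups, with total RNA libraries. The Methods place the samples at the infarct site and do not say which part of the cortex was taken from Sham rats. Sham rats received saline and had the vessels of the neck exposed without insertion of a wire. The I/R rats received saline 30 min before transient middle cerebral artery occlusion (tMCAO), in which a wire closes the artery for 2 h and is then withdrawn. The I/R + DEX rats had the same occlusion and received 50 μg/kg of dexmedetomidine (DEX), a sedative agonist of α2-adrenergic receptors, by intraperitoneal injection 30 min before it. This timing is that of the Methods, and the study elsewhere also mentions DEX after reperfusion, so whether these rats had a later dose is not known. All rats were sacrificed 24 h after tMCAO, so a single time point is covered. The library totals ran from 21691473 to 36039743 counts, and the 3 Sham libraries were the smallest. The annotated transcripts of the table could not be paired with gene symbols (0 of 40808 identifiers matched), so the cortical origin of the libraries was not checked against marker genes. In such bulk tissue, fewer cells of a type and less RNA per cell cannot be told apart.

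As background, a locus of lncRNA commonly yields several transcripts by alternative splicing or by the use of more than one start or end, and short reads that fall in shared exons do not show from which transcript they came. In the ischemic brain, lncRNA have been studied as regulators of inflammation and cell death. One proposed mode of action is that of a competing endogenous RNA (ceRNA), which binds microRNA and so keeps them from their mRNA targets. MSTRG.2024.4 is among the lncRNA that the study drew into its ceRNA networks. The sequence and the genomic position of the locus were not analysed here.

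The summed counts of the locus were far higher after tMCAO than in Sham cortex. In the Sham group they were 8932, 7607 and 11201 counts in replicates 1, 2 and 3. In the I/R group they were 86579, 90393 and 64951 counts in the same order. In the I/R + DEX group they were 25655, 52063 and 66378 counts. Every library of both occluded groups thus lay above every Sham library, and the widest spread was among the rats given DEX.

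Counts were then scaled to a common library size (CPM) with the trimmed mean of M-values (TMM). The locus measured 348 ± 30.6 CPM in the Sham rats, 2330 ± 418 CPM in the I/R rats and 1523 ± 750 CPM in the DEX-treated rats (mean ± SD, n = 3 per group). The I/R mean was 6.69 times the Sham mean, and the fitted log2 fold change was 2.73 with a standard error of 0.17. The 3 I/R libraries all lay above the 3 Sham libraries, as they did for 30.9% of the 25186 loci and annotated transcripts tested. Among the 2281 tested loci of predicted lncRNA, 57 had a larger log2 fold change, and the median of these loci was -0.56, which is a decrease. Among the 370 tested loci with more than 1 transcript, MSTRG.2024 ranked 8, against a median of -0.82. Its share of all counts of a library was 0.0356% ± 0.00330 for Sham, 0.237% ± 0.0337 for I/R and 0.142% ± 0.0581 for the DEX-treated rats (mean ± SD, n = 3 per group).

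**Figure D1:**
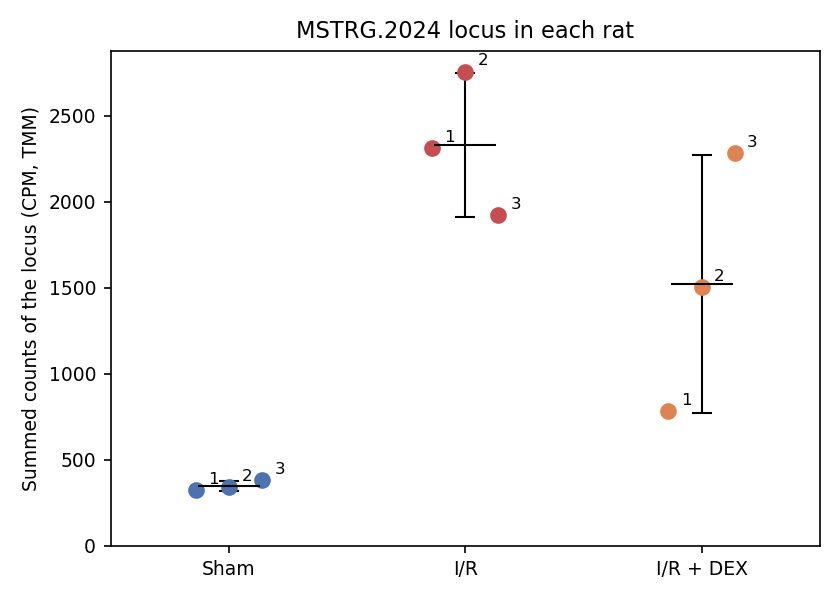
Summed counts of the MSTRG.2024 locus in CPM after TMM scaling (vertical axis) for each rat of the 3 groups, with the replicate number beside each point. Long horizontal bars are means and whiskers 1 SD (n = 3). The Sham rats sit between 321 and 381 CPM, the I/R rats between 1922 and 2757, and the I/R + DEX rats between 782 and 2282.

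Whether DEX altered the level of the locus was asked by setting the I/R + DEX group against I/R. The I/R + DEX rats had 782, 1506 and 2282 CPM in replicates 1, 2 and 3, and the I/R rats had 2311, 2757 and 1922 CPM. The groups overlapped, since I/R + DEX replicate 3 lay above I/R replicate 3. The log2 fold change was -0.61 with a standard error of 0.39 and a 95% interval from -1.54 to 0.33 (edgeR's quasi-likelihood test, unadjusted p = 0.166, Benjamini-Hochberg adjusted p = 0.979 over 25296 loci and annotated transcripts). A 2-sided exact permutation test on the CPM of these 6 rats gave p = 0.2, where 3 rats against 3 allow no p below 0.1. The interval includes 0 and covers decreases as well as a small increase, so no difference between these groups was called. No locus or annotated transcript of this comparison passed an adjusted p under 0.05 in edgeR (0 of 25296), and 1003 (3.97%) had an unadjusted p under 0.05. The log2 fold change of the locus moved to -1.01 when I/R + DEX replicate 3 was left out and to -0.29 when replicate 1 was left out, neither past an adjusted p under 0.05. In edgeR the unadjusted p was 0.0259 without replicate 3 (adjusted p = 0.397) and 0.318 without replicate 1. With limma-voom on all 6 rats it was 0.0273 (adjusted p = 0.24). The unadjusted result thus depended on single rats and on the method.

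Against the Sham group, the locus remained high in the I/R + DEX group. The I/R + DEX rat with the lowest value, replicate 1 with 782 CPM, lay above the Sham rat with the highest, replicate 3 with 381 CPM. The log2 fold change was 2.13 with a standard error of 0.39 and a 95% interval from 1.19 to 3.06, a fitted fold of 4.37 (edgeR's quasi-likelihood test, adjusted p = 0.0156). At an adjusted p under 0.05, 22.1% of the 24694 loci and annotated transcripts were called in this comparison, and in 24.2% the 3 I/R + DEX libraries all lay above the 3 Sham libraries. The exact permutation test gave p = 0.1, the smallest p that this design allows. The call was lost when any Sham library was left out, with adjusted p-values of 0.0716, 0.0729 and 0.0671 without Sham replicates 1, 2 and 3, while the log2 fold change stayed between 2.06 and 2.18. Both comparisons of the I/R + DEX group use the same 3 rats, and each shares its other group with the comparison by which the locus was chosen.

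The rat with the lowest locus level among those given DEX also lay closest to Sham at other features. On a scale on which the Sham mean of log2 CPM is 0 and the I/R mean is 1, the locus stood at 0.43, 0.77 and 0.99 in I/R + DEX replicates 1, 2 and 3. For the 5834 other loci and annotated transcripts that were higher after I/R than in Sham at an adjusted p under 0.05 (with the locus, 23.2% of those tested), the median position was 0.67, 0.79 and 1.05 in the same libraries. The order of the 3 rats was the same at the locus and at these medians. In replicate 1, 24.6% of the other features lay below the position of the locus, against 47.5% and 42.0% in replicates 2 and 3. The part of this whole-library difference in the spread of the locus was not tested.

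**Figure D2:**
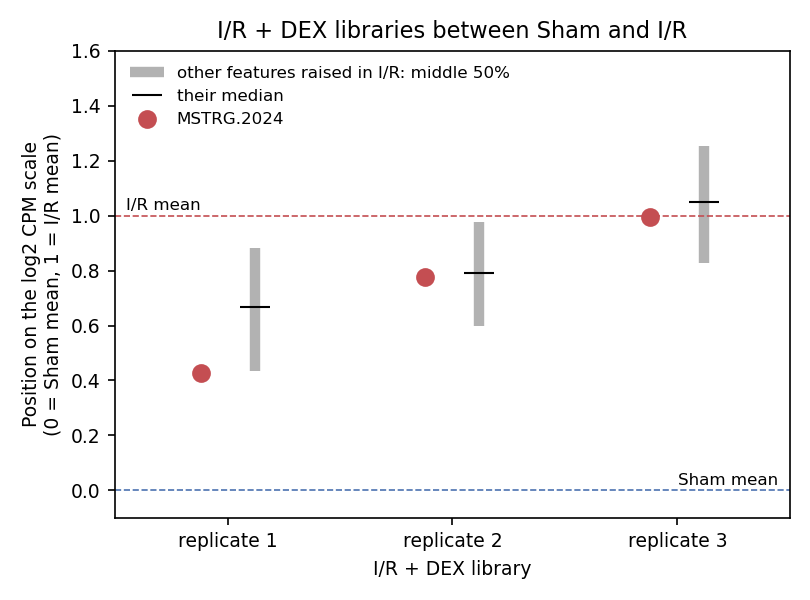
Position of each I/R + DEX library between the Sham mean (0) and the I/R mean (1) on the log2 CPM scale (vertical axis), for the MSTRG.2024 locus (points) and for 5834 other features higher in I/R than in Sham (bars span the middle 50%, black lines are medians). Replicate 1 stands lowest and replicate 3 highest for both.

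While the sum of the locus was close among rats of the Sham and I/R groups, its division among the 12 transcripts was not. A transcript was taken as detected in a library when it had more than 3 counts there. The number detected was 8, 4 and 9 of 12 in Sham replicates 1, 2 and 3, then 8, 10 and 4 in I/R, and 2, 8 and 10 in I/R + DEX. MSTRG.2024.7 was the 1 transcript detected in each of the 9 libraries, and 3 transcripts were detected in no more than 2 libraries. The libraries with few detected transcripts were not generally poor in transcripts of multi-transcript loci. Of the 1204 predicted lncRNA in other such loci, 935 were detected in Sham replicate 2, 962 in I/R replicate 3 and 961 in I/R + DEX replicate 1, within the range of 866 to 976 over the 9 libraries.

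**Figure D3:**
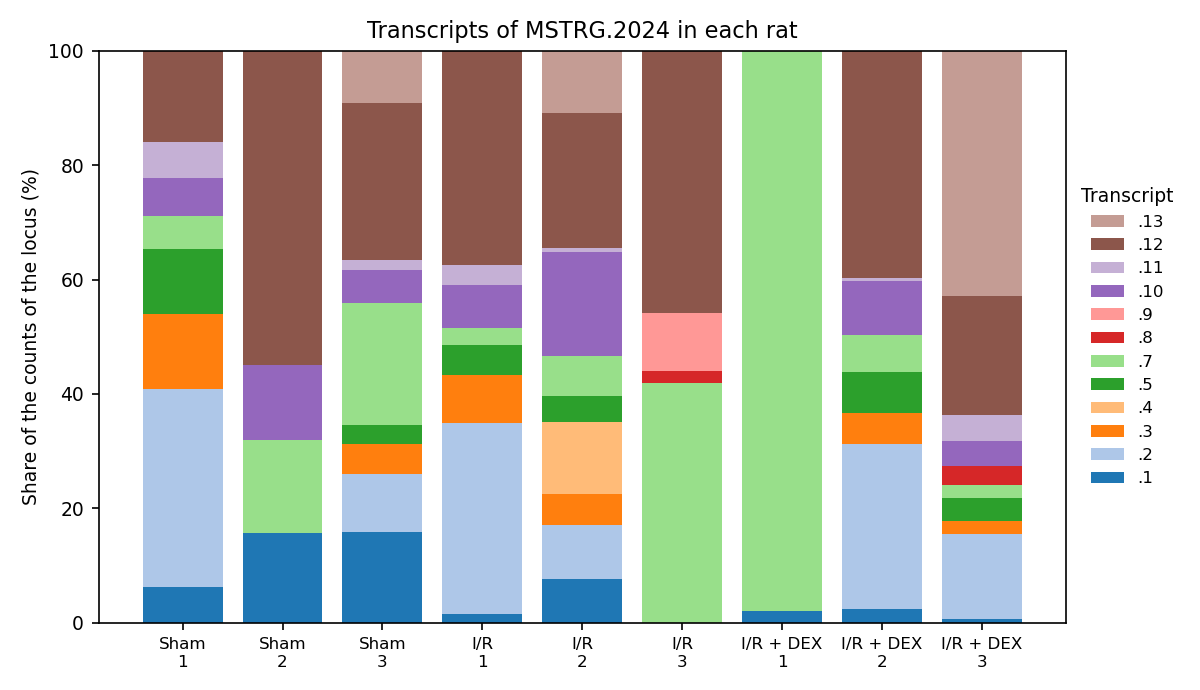
Share of the counts of the MSTRG.2024 locus that each of its 12 transcripts took (vertical axis, percent) in each of the 9 rats, with the last part of the identifier in the legend. MSTRG.2024.7 fills 97.9% of the bar of I/R + DEX replicate 1, and MSTRG.2024.13 fills 42.9% of that of I/R + DEX replicate 3. Shares are of counts and are not corrected for transcript length.

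MSTRG.2024.12 carried the most counts over the 9 libraries, 30.7% of the locus. It had 1419, 4183 and 3074 counts in Sham replicates 1, 2 and 3. The I/R rats had 32499, 21289 and 29807 counts of it, each above every Sham library, as held for 30.3% of all transcripts tested. The DEX-treated rats had 0, 20724 and 13830 counts, with the 0 in replicate 1, where MSTRG.2024.7 had 25125 counts. Its level was 115 ± 69.3 CPM for Sham, 799.6 ± 130.4 CPM for I/R and 358 ± 316 CPM for the DEX-treated rats (mean ± SD, n = 3 per group). The I/R and I/R + DEX values of this transcript did not overlap after scaling, and this held for 1 of the 8 transcripts tested, against 9.02% of all transcripts tested. With the counts of MSTRG.2024.7 added, the I/R rats had 34984, 27593 and 57026 counts and the DEX-treated rats 25125, 24076 and 15288. In that sum, I/R + DEX replicate 1 was the highest of the DEX-treated rats.

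MSTRG.2024.7 had 528, 1228 and 2393 counts in the Sham rats, in the order of replicates 1, 2 and 3. The I/R rats had 2485, 6304 and 27219 counts of it, and the DEX-treated rats 25125, 3352 and 1458. It was thus high in a single rat of each occluded group. In I/R replicate 3 it took 41.9% of the locus and in I/R + DEX replicate 1 it took 97.9%, where the remaining counts were the 530 of MSTRG.2024.1. In the other 7 libraries its share was between 2.20% and 21.4%.

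MSTRG.2024.2, MSTRG.2024.3, MSTRG.2024.5 and MSTRG.2024.11 were detected in the same 6 libraries and had 0 counts in the same 3, Sham replicate 2, I/R replicate 3 and I/R + DEX replicate 1. MSTRG.2024.2 was the most counted of them, with 3094, 0 and 1153 counts in the Sham rats, 28976, 8580 and 0 in the I/R rats, and 0, 14939 and 9811 in the DEX-treated rats. MSTRG.2024.3 reached 7313 counts, MSTRG.2024.5 reached 4500 and MSTRG.2024.11 reached 2990. Together these 4 transcripts took between 20.2% and 65.4% of the locus in the 6 libraries. Their proportions varied, and MSTRG.2024.2 had from 1.80 to 6.32 times the counts of MSTRG.2024.3. Of the 3239 predicted lncRNA of other loci, 1 was detected in exactly these 6 libraries. The 3 libraries that lacked the 4 transcripts belonged to 3 different groups.

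MSTRG.2024.10 was missing from the same occluded rats but not from Sham. The Sham rats had 591, 996 and 643 counts of it, the I/R rats 6620, 16354 and 0, and the DEX-treated rats 0, 4874 and 2913. MSTRG.2024.1 had a single count in I/R replicate 3 and was detected in the other 8 libraries. The Sham rats had 554, 1200 and 1768 counts of it, the I/R rats 1277, 6941 and 1, and the DEX-treated rats 530, 1287 and 443. Its level was 44.7 ± 21.7 CPM for Sham, 81.9 ± 114 for I/R and 22.9 ± 12.4 for the DEX-treated rats (mean ± SD, n = 3 per group), and each pair of groups overlapped.

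The remaining transcripts were detected in at most 3 libraries. MSTRG.2024.13 had 1031 counts in Sham replicate 3, 9811 in I/R replicate 2 and 28470 in I/R + DEX replicate 3, and 0 counts in the other 6. It was the most counted transcript of the locus in that last rat. MSTRG.2024.8 had 1316 counts in I/R replicate 3 and 2228 in I/R + DEX replicate 3, and 0 counts elsewhere. MSTRG.2024.4, the transcript of the ceRNA networks, had 11399 counts in I/R replicate 2, which was 12.6% of the locus in that rat, and 0 counts in the other 8 libraries. MSTRG.2024.9 had 6608 counts in I/R replicate 3 and 0 counts in the other 8. The study listed these last 2 transcripts, MSTRG.2024.4 and MSTRG.2024.9, among the lncRNA raised in I/R and lowered in I/R + DEX. For both, the values of the I/R group come from a single rat each. The filter on low counts removed all 4 of the remaining transcripts from the tests of each comparison, so the study's listing of these 2 was not tested here.

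Loss of a transcript from single libraries was set beside the rest of the table among transcripts that reached at least 1000 counts in some library. In MSTRG.2024, 11 of 12 such transcripts (91.7%) were at or under 3 counts in at least 1 library, with a median of 3 such libraries. The share was 18.5% (5 of 27) in other loci with 10 or more transcripts and 36.1% (116 of 321) in loci with 2 to 9. It was 0.459% (3 of 654) in loci with 1 transcript and 1.32% (104 of 7895) for annotated transcripts. A bar of 1000 counts in some library also admits transcripts seen in a single library, such as MSTRG.2024.4 and MSTRG.2024.9, which then count as lost in the others. The locus was chosen for its rise in I/R and the other classes were not, so these shares are a description without a test. Within groups, the coefficient of variation of the summed locus was 8.79% for Sham, 17.9% for I/R and 49.2% for the DEX-treated rats, whereas the median over its transcripts with counts was 102%, 116% and 91.5%. In 263 other multi-transcript loci with at least 10 CPM, the medians were 8.88%, 24.5% and 34.2% for sums and 49.0%, 60.3% and 67.8% for transcripts, in the same order of groups. How reads shared by transcripts of a locus were divided among them is not given in the sources used here, and its part in these losses was not tested.

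Tested one by one, the transcripts of the locus gave wide intervals. The filter on low counts kept 8 of the 12, and a filter of this kind favours transcripts that are high in a group. The study's cutoff is a log2 fold change past 0.8 in size together with an unadjusted p below 0.05. It was not applied to I/R against Sham, the contrast that chose the locus, where the fitted log2 fold changes of the 8 ran from 0.88 for MSTRG.2024.1 to 2.94 for MSTRG.2024.10. In I/R + DEX against I/R, 0 of the 8 passed the cutoff, against 2.36% of 25860 transcripts, and 0 had an unadjusted p under 0.05 in edgeR's quasi-likelihood test, against 3.86%. DESeq2 and limma-voom also placed 0 past the cutoff. In edgeR the log2 fold changes of the 8 transcripts ran from -1.81 for MSTRG.2024.1 to 0.12 for MSTRG.2024.11, with standard errors of at least 1.25 and a median of -0.79, where the median over all transcripts was 0.01. Against Sham, 0 of the 8 passed the cutoff in the I/R + DEX group and 0 had an unadjusted p under 0.05, where 26.2% and 37.8% of 25283 transcripts did, and a DESeq2 Wald test placed 1 past it. Here 7 of the 8 had positive fitted values, with a median of 1.84 where that over all transcripts was 0.02. The largest was 2.55 for MSTRG.2024.7 (standard error 1.12, edgeR adjusted p = 0.15), which was 0.50 without I/R + DEX replicate 1. MSTRG.2024.1 had -0.96 (standard error 0.52, edgeR adjusted p = 0.231). The choice of the locus by its rise from Sham to I/R favours positive values against Sham and negative values against I/R. The 8 transcripts also belong to 1 locus and are not independent of each other. Left-out libraries moved the count past the cutoff against Sham, which was 2 without I/R + DEX replicate 1 and likewise without replicate 2, and 1 without I/R + DEX replicate 3 or without Sham replicate 1. These calls went in both directions. MSTRG.2024.1 passed as a decrease without I/R + DEX replicate 2 (log2 fold change -1.50) and without Sham replicate 1 (-1.32), and the other calls were increases. The count against I/R was 1 without I/R replicate 3.

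**Figure D4:**
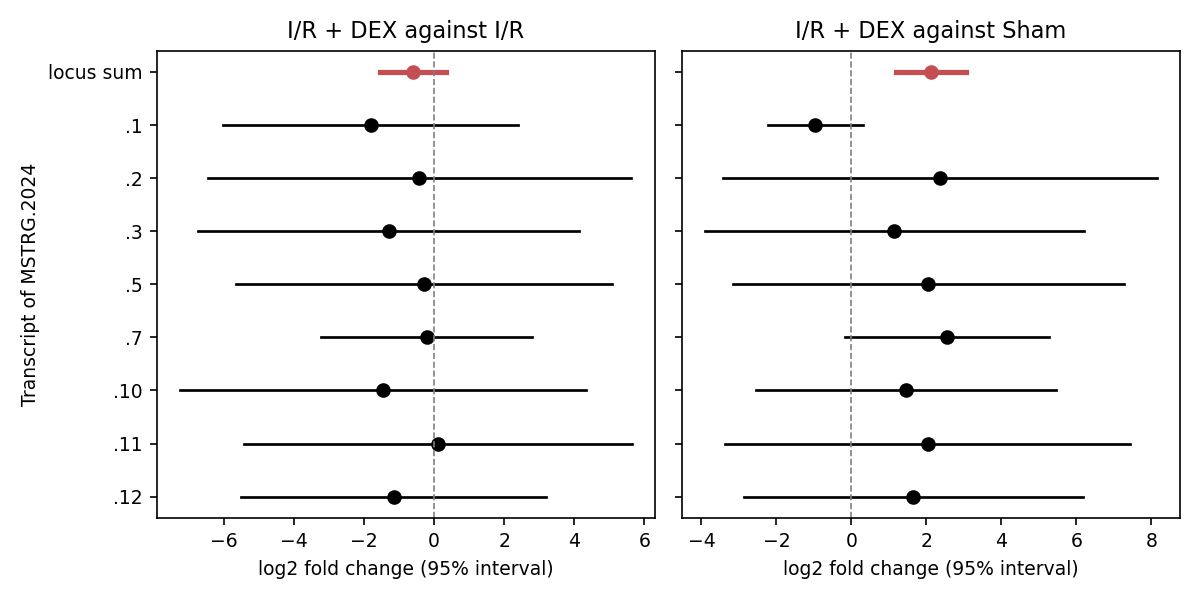
Log2 fold changes (horizontal axis) with 95% intervals for the summed MSTRG.2024 locus (red) and for the 8 transcripts that passed the filter on low counts (black), in I/R + DEX against I/R (left) and against Sham (right). The interval of the sum spans -1.54 to 0.33 on the left and 1.19 to 3.06 on the right, and the interval of each transcript crosses 0 in both panels.

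Whether the division of counts among the transcripts differed between groups was tested apart from the level of the locus. Over the loci of predicted lncRNA with more than 1 transcript tested, MSTRG.2024 had an adjusted p = 1 when the I/R + DEX group was set against I/R and likewise against Sham (edgeR's test of differential usage with Simes combination and Benjamini-Hochberg adjustment). This test called 5 of 259 loci (1.93%) in the first comparison and 8 of 265 (3.02%) in the second at an adjusted p under 0.05. No difference in usage was called for MSTRG.2024. Only 8 of its transcripts entered the test, which left out MSTRG.2024.13, 42.9% of the locus in I/R + DEX replicate 3. Given the wide spread of single transcripts within groups, the result does not show that usage was equal.

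The pattern of the summed locus over the 9 libraries was shared by many other features. Among 2092 other loci of predicted lncRNA with a mean of at least 1 CPM, 152 (7.27%) had a Pearson correlation of log2 CPM with MSTRG.2024 above 0.9, and so did 2503 of 19432 annotated transcripts (12.9%). These are descriptions over 9 libraries, and the points share the division into groups as well as library depth. The most similar loci were MSTRG.2196 (r = 0.992), MSTRG.16825 (r = 0.988), MSTRG.10394 (r = 0.988), MSTRG.4526 (r = 0.987) and MSTRG.10467 (r = 0.987). MSTRG.10467 measured 5.39 ± 1.89 CPM for Sham, 75.6 ± 4.76 for I/R and 41.2 ± 18.8 for the DEX-treated rats, and MSTRG.2196 measured 4.90 ± 0.477, 28.5 ± 1.39 and 23.2 ± 11.3 CPM in the same order (mean ± SD, n = 3 per group). These loci were picked for their likeness over the same libraries, which largely sets the order of the I/R + DEX rats in them, with 22.5, 41.1 and 60.1 CPM for MSTRG.10467. The most similar annotated transcript, ENSRNOT00000028544 (r = 0.996), measured 145 ± 10.4 CPM for Sham, 434 ± 59.6 for I/R and 331 ± 89.2 for the DEX-treated rats (mean ± SD, n = 3 per group).

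The study also drew transcripts of the loci MSTRG.288 and MSTRG.17966 into its ceRNA networks. Against I/R, the I/R + DEX group had log2 fold changes of -0.61 for MSTRG.288 and -0.45 for MSTRG.17966, with 95% intervals from -1.02 to -0.19 and from -0.86 to -0.03 (edgeR adjusted p = 0.979 for each). Both intervals lay below 0 and the groups did not overlap at either locus. The study had listed transcripts of both loci as raised in I/R and lowered in I/R + DEX in these same rats. That listing favours such values, which are therefore no separate support. In this comparison 3.97% of 25296 loci and annotated transcripts had an unadjusted p under 0.05 in edgeR, and 0 had an adjusted p under 0.05. Among single transcripts, the groups did not overlap for 9.02% of 25860. MSTRG.2024 also had a log2 fold change of -0.61, with a standard error of 0.39 against 0.17 for MSTRG.288. Its groups overlapped and its interval included 0. Against Sham, where MSTRG.2024 had a log2 fold change of 2.13, MSTRG.288 had 0.26 (95% interval -0.10 to 0.61, edgeR adjusted p = 0.249) and MSTRG.17966 had -0.26 (95% interval -0.66 to 0.14, edgeR adjusted p = 0.301). The interval of MSTRG.2024 in this comparison lay above both of these intervals. MSTRG.2024 was chosen for a rise over these same Sham libraries, which favours this order. Differences between loci were not themselves tested in either comparison.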

How the data were processed

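Total RNA of 9 rats was sequenced by the authors. The deposited table gives unnormalized counts, as whole numbers, for each transcript in each of the 9 libraries. The submitters' processing notes name STAR 2.5.3a, StringTie 1.3.1 and the rat build rn6, whereas the Methods name Trimmomatic, a mouse build and CLC Genomics Workbench. The division of reads shared by transcripts of a locus is not given in the sources used here. Groups and replicate numbers were taken from the sample titles.

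Counts of predicted lncRNA were summed by locus, the identifier without its last part. Fits used edgeR 4.0.16 in R 4.3.3 (filterByExpr, with a minimum count of 10 and a total of 15, TMM, quasi-likelihood test) on the 6 libraries of the groups compared, over all transcripts or all loci and annotated transcripts, with Benjamini-Hochberg adjustment. Usage was tested with diffSpliceDGE. CPM used TMM factors from all 9 libraries, with a prior count of 2 on the log2 scale. The standard error of a log2 fold change was its size over the root of the F statistic. At the floor of 3 counts a library had between 0.0801 and 0.135 CPM. Same-group libraries differed by 25.8 to 327 chi-square units per degree of freedom, so none was counted as a duplicate. The scripts were tested on simulated counts.

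The 12 transcripts, the 5 loci and up to 2 annotated transcripts most correlated with the locus were named. Planned calls of single transcripts in I/R against Sham are not reported, because that contrast chose the locus. The members, lists and tests were chosen with earlier results of these data known. Alternatives used DESeq2 1.42.0 and limma 3.58.1, other scalings and filters, all libraries in one fit, a replicate block and each library left out.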

Additional observations from a re-analysis of the deposited data

How the results depend on the processing

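The log2 fold change of the summed locus kept its direction in all 15 alternatives of I/R + DEX against I/R and all 15 against Sham. Against I/R it ran from -0.75 to -0.47 over 9 other settings and from -1.01 to -0.29 with 1 library left out, and it passed an adjusted p under 0.05 in 0 of the 15. Against Sham it ran from 1.98 to 2.86 over the 9 other settings and from 1.71 to 2.43 with a library left out, and the 3 settings without a Sham library lost the call. In I/R against Sham it ran from 2.59 to 2.86 with a library left out. With a library left out, the number of transcripts past the study's cutoff was 0 to 1 for the I/R + DEX group set against I/R, and 0 to 2 when set against Sham. It was 1 with DESeq2 against Sham.

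The direction of single transcripts was less steady. In I/R + DEX against I/R, MSTRG.2024.11 reversed to -0.13 with total counts, -2.86 with limma-voom and -1.63 with the replicate block, MSTRG.2024.1 to 0.58 and MSTRG.2024.7 to 0.25 with limma-voom, and MSTRG.2024.2 to 0.75 with the replicate block. In I/R + DEX against Sham, MSTRG.2024.12 reversed to -1.12 and MSTRG.2024.10 to -0.81 with limma-voom. With a library left out, log2 fold changes against I/R ran from -1.03 to 1.00 for MSTRG.2024.2, -2.40 to 0.43 for MSTRG.2024.1, -0.87 to 0.30 for MSTRG.2024.5, -2.27 to 1.27 for MSTRG.2024.7 and -3.23 to 1.66 for MSTRG.2024.11. Against Sham, MSTRG.2024.11 ran from -1.33 to 3.43 and MSTRG.2024.7 from 0.50 to 3.06. The cause was not tested.

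The r of MSTRG.10394 was 0.98 with total counts, an alternative chosen after seeing the data. Replicate numbers showed no sign of pairing the rats, as same-numbered deviations correlated between -0.285 and 0.0606 over the 3 comparisons. With so few rats per group this cannot exclude a pairing. With the replicate block the locus had a log2 fold change of -0.72 against I/R (adjusted p = 0.999) and stayed past the threshold against Sham (adjusted p = 0.0377), and the block changed no call of the locus.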
